A study of Mus musculus with 4 samples.

Results

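Irf2bp1 and Irf2bp2 encode IRF2-binding corepressors, and Irf2bpl encodes a related protein. The Runx3 ChIP-seq peaks around these 3 genes of 22367 protein-coding genes are described here. A peak was counted for a gene when its centre lay in the gene body or within 300 kb of it. Of the 15121 peaks in the list, 45 met this rule, with 21 at Irf2bp2, 16 at Irf2bp1 and 8 at Irf2bpl. The genes were selected on their numbers of peaks, Irf2bp2 for a very high one, so numbers and scores of peaks are given as a description without a test. Runx3 was immunoprecipitated from splenic CD11chiMHCII+CD4+ DC in 2 samples, and 2 input samples of whole cell extract chromatin served as control. Each sample was collected from approximately 15 mice, labelled C57BL/6 for 3 samples and C57BL/7 for 1 input. No genotype or treatment separates the samples. The peaks come from 1 call on the pooled samples, so that no peak has a value per replicate, and the number of reads per sample was not analysed here. A peak list holds no RNA levels, so the identity of the sorted cells was not checked against marker genes.

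IRF2BP1 and IRF2BP2 are nuclear proteins found through their binding to the repression domain of IRF2, an interferon regulatory factor that acts as a repressor of interferon-responsive promoters. The related IRF2BPL, also named EAP1, shares the zinc finger at the amino end and the RING finger at the carboxyl end. IRF2BP2 also binds NFAT1 and VGLL4 and is known in macrophages as a brake on inflammatory gene expression. Runx3 is a Runt domain factor that binds DNA together with CBFB, and TGTGGT is the core of its recognition sequence.

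The peaks at Irf2bp2 lay mostly in a long stretch without annotated genes upstream of it. Irf2bp2 (ENSMUSG00000051495) is a gene of 5.1 kb on the minus strand, at chr8:129112196-129117336 of mm9. The next gene upstream is Tomm20, which encodes a receptor for protein import into mitochondria. The stretch between these genes spans 340.7 kb and held 17 peaks, or 4.99 peaks per 100 kb. Over the chromosomes that carry peaks, the list holds 0.573 peaks per 100 kb. Among 27985 stretches of any length between neighbouring annotated genes, 2 held 17 or more peaks, that at Irf2bp2 included, or 0.00715%. The other, chosen after its value was seen, lies beside the antiproliferative gene Btg1 on chromosome 10, spans 452.6 kb and held 20 peaks. Long stretches mostly held none. Of the 852 that are at least as long as that at Irf2bp2, itself included, 2 held 17 or more peaks and 666 had no peak. Irf2bp2 was picked for its number of peaks, so these counts only describe the stretch.

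The sequences below show the RUNX hexamer in the peaks of this upstream stretch that reached the upper quartile of scores in the list and hold it. They were read from mm9 on the strand that spells TGTGGT, for the copy nearest to the peak centre, with the hexamer in capitals and 10 bases on either side.
Peak 239.1 kb upstream, chr8:129356729-129356754, minus strand: aaagcaggccTGTGGTttggtgattg
Peak 254.2 kb upstream, chr8:129371619-129371644, plus strand: acgcagctgcTGTGGTtgacagcaca
Peak 274.4 kb upstream, chr8:129391807-129391832, plus strand: ggcttggtgaTGTGGTggtcccaccc
Peak 221.2 kb upstream, chr8:129338555-129338580, plus strand: cttcctcctcTGTGGTcctctgctcc
In the first 2 peaks, which had the highest scores at Irf2bp2, the hexamer was followed by a further T. This was so for 9 of the 22 hexamers in the peaks of Irf2bp2, and for 40.5% of the 12266 hexamers in all peaks.

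Scores are the values that MACS2 wrote for each peak. Their unit is not stated, and they ranged from 1.33 to 309 in the list, with a median of 12.1 and an upper quartile of 23.2. The scores of the 21 peaks at Irf2bp2 ran from 2.30 to 159, with a median of 11.96 beside 12.14 for the list. Of these peaks 6 reached the upper quartile, beside 25.4% of all peaks. The strongest, chr8:129355896-129357034, scored 159 and ranked 23 in the list. It is centred 239.1 kb upstream of the Irf2bp2 TSS and is 1139 bp wide. The next, chr8:129371238-129371877, is centred 254.2 kb upstream, scored 151 and ranked 28. Peaks with scores of 55.8, 53.2, 37.1 and 24.7 lay 164.7, 210.8, 274.4 and 221.2 kb upstream. All peaks of the upper quartile at Irf2bp2 were thus in the gene-free stretch.

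**Figure D1:**
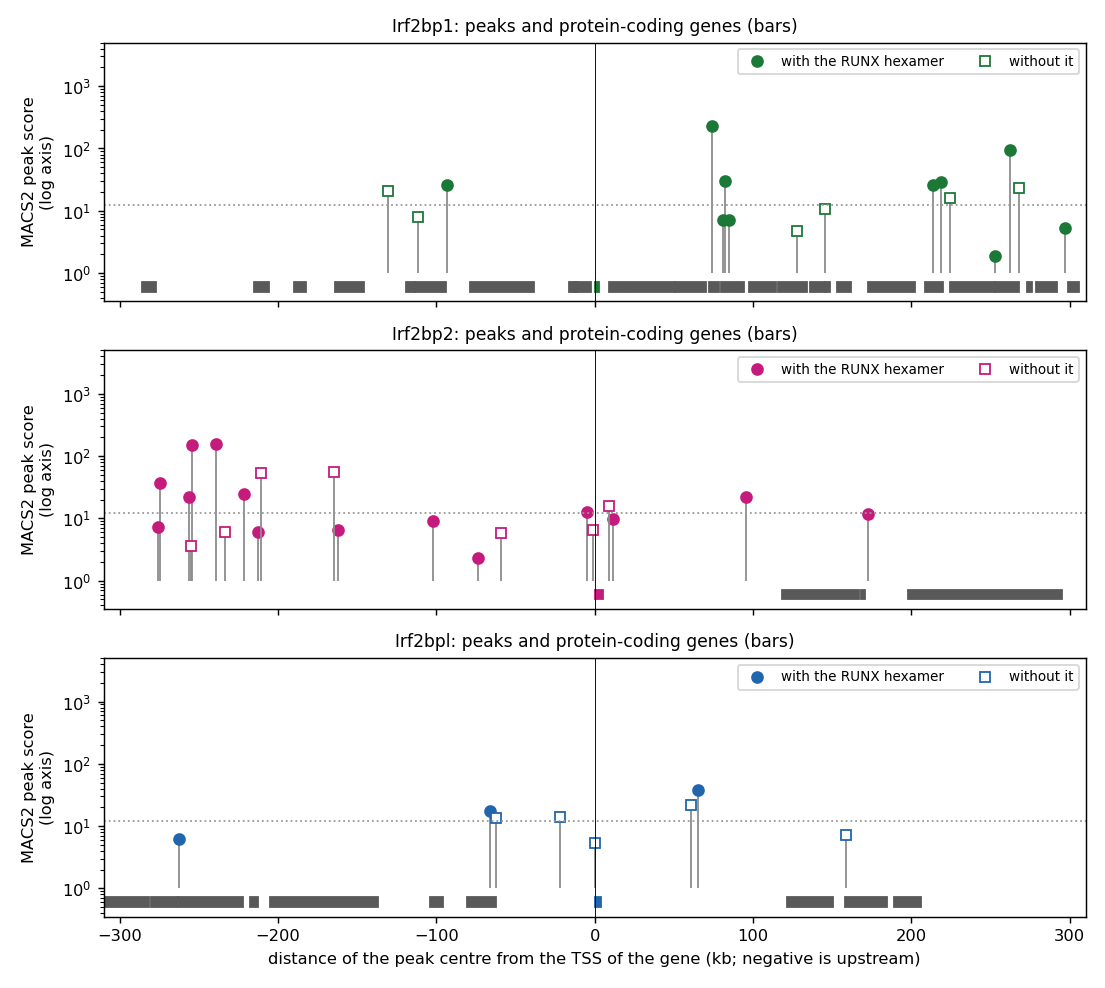
Runx3 peaks around the 3 genes, with the distance of the peak centre from the TSS in kb on the x axis and the MACS2 score on a log axis on y. Filled circles hold TGTGGT and open squares do not, the dotted line is the median score of the list, and bars under the peaks are protein-coding genes, the coloured bar being the named gene. The strong peaks of Irf2bp2 stand 164.7 to 274.4 kb upstream, where no gene is drawn.

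The peaks upstream of Irf2bp2 were not evenly spread. The 12 farthest ones lay between 162.4 and 275.7 kb from the TSS, within 113.3 kb, and carried 84.6% of the summed score of the 21 peaks. Around the densest point 8 peaks fell within 50 kb, which was reached at 0.86% of all peaks. A further 3 peaks lay 58.9, 73.6 and 102.1 kb upstream, with scores of 5.81, 2.30 and 9.20, all below the list median. Within 12 kb of the TSS were 4 peaks, with scores from 6.45 to 16.1. The remaining 2 lay 95.7 and 172.5 kb downstream and scored 22.3 and 11.96. The latter is 1557 bp upstream of 1810063B05Rik, the nearest gene.

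The far peaks were often nearer to another gene. By the nearest protein-coding TSS, 9 of the 21 peaks belonged to Irf2bp2 and the 10 farthest upstream to Tomm20, whose TSS lay 76.7 to 141.5 kb from them. The strongest peak was 239.1 kb from the TSS of Irf2bp2 and 113.3 kb from that of Tomm20. At Tomm20 itself, 352.2 kb upstream of Irf2bp2 and just outside the window, the next peak of the list scored 3.17. On the downstream side the first peak outside the window was 863.2 kb from the gene and scored 21.5. None of the 21 peaks was within 1 kb of a TSS annotated in GENCODE M1, where 38.0% of all peaks lay, although 1 was so by the RefSeq start of Irf2bp2 given below. Instead 15 were farther than 50 kb from every GENCODE M1 TSS, beside 8.78% of all peaks, and 19 were between genes, beside 44.5%. The other 2 were in an intron of the long noncoding RNA gene Gm16983, which lies on the opposite strand and overlaps the 3′ part of Irf2bp2.

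Near the Irf2bp2 promoter the peaks had low to middling scores. No peak was centred in the gene body, and 2 lay within 5 kb of the TSS, where 7.86% of protein-coding genes had 2 or more. The nearer one, chr8:129118327-129118682, was centred 1168 bp upstream and scored 6.45, above 19.6% of the list. The other, chr8:129122041-129122595, was centred 4982 bp upstream and scored 12.7, above 50.6% of the list. The GENCODE model of Irf2bp2 starts inside the RefSeq one. The RefSeq promoter matched mm9 exactly at a single place and sets the start 550 bp farther upstream, at 129117886. The nearer peak was then centred 618 bp upstream of it, and its closest edge was 441 bp away. On either model the peak did not cover the start of the gene.

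At Irf2bpl a single peak of low score covered the TSS. Irf2bpl (ENSMUSG00000034168, listed in GENCODE M1 as 6430527G18Rik) is a gene of 4.1 kb on the minus strand, at chr12:88221653-88225764. The peak chr12:88225594-88225896 reached from 132 bp upstream to 170 bp downstream of the TSS and scored 5.36, above 12.4% of the list. A peak within 5 kb of a TSS was found for 31.3% of protein-coding genes, and Irf2bp1 had none. The strongest peak of Irf2bpl, chr12:88160010-88160576, lay 65.5 kb downstream and scored 38.1. Beside it, at 60.8 kb, was a peak with a score of 21.5. The nearest peak upstream, at 21.8 kb, scored 14.2. A pair at 62.3 and 65.8 kb upstream, with scores of 13.4 and 17.3, belonged by position to 2310044G17Rik. The peak 262.7 kb upstream scored 6.32 and lay 207 bp upstream of Gstz1, a glutathione transferase gene. That at 158.4 kb downstream scored 7.2 and lay 25 bp from the TSS of Angel1. Just outside the window were peaks 381.5 kb upstream, with a score of 5.36, and 638.0 kb downstream of the gene, with a score of 30.4. Of the 8 peaks, 4 had Irf2bpl as the gene of their nearest protein-coding TSS. Over all annotated TSS, noncoding ones included, only 1 did. The peaks with scores of 38.1 and 21.5 were then nearest to the noncoding 7SK, and that with 14.2 to the noncoding Gm17422.

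The peaks nearest to these promoters shared the hexamer TGACGT, which the study gives as the binding site of the DC transcription factor zDC (Zbtb46). The 3 peaks within 5 kb of a TSS of Irf2bp2 or Irf2bpl all held it, beside 14.6% of peaks within 5 kb of a protein-coding TSS. It was 1 of 7 motifs searched, and binding of zDC or another factor at these sites was not tested. The ratio of observed to expected CpG was 0.82 and 0.38 in the Irf2bp2 peaks and 0.99 in the Irf2bpl peak. The list median was 0.32, and the share of 14.6% was not matched for this ratio. Only the peak 4982 bp upstream of Irf2bp2 held TGTGGT. The mm9 sequences around these sites are given to show where these hexamers occur, in capitals, in 201 bases around the centre of each Irf2bp2 peak on the plus strand, and in the 250 bases before the Irf2bpl TSS on the strand of the gene.
Irf2bp2, 1168 bp upstream, chr8:129118404-129118604: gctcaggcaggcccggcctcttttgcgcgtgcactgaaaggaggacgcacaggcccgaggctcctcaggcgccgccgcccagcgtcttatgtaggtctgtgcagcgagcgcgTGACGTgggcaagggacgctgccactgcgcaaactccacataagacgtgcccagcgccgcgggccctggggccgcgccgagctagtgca
Irf2bp2, 4982 bp upstream, chr8:129122218-129122418: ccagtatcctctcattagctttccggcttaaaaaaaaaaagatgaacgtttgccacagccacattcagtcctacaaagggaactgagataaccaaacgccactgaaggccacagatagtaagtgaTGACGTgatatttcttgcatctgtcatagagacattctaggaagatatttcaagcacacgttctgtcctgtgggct
Irf2bpl, before the TSS, chr12:88225765-88226014, minus strand: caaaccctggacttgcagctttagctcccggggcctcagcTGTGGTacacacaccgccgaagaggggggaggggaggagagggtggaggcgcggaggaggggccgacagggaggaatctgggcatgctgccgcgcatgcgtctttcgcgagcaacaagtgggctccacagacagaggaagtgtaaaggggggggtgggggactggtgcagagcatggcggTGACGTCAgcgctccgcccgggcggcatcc
In the Irf2bp2 peaks the centre of TGACGT lay 15 and 28 bp from the peak centre. In Irf2bpl it occurs on both strands as the overlapping TGACGTCA, 30 to 23 bp before the TSS and inside the peak. The TGTGGT of the Irf2bpl promoter, 210 to 205 bp before the TSS, lay outside the peak. In the RefSeq promoters of 300 bases, from 250 before to 50 after the start, TGTGGT was in 16.8% and TGACGT in 7.51% of 32851, searched on both strands. Neither was in those of Irf2bp1 and Irf2bp2. In the window of Irf2bp1, the peak 28 bp from the TSS of Opa3 held 4 copies of TGACGT. Its ratio of observed to expected CpG was 0.96.

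The hexamer of the peak 4982 bp upstream of Irf2bp2 lay 214 bp from its centre, and is shown for its overlap with TGANTCA, the recognition sequence of AP-1 factors. The hexamer is in capitals, and the overlapping match begins with its last base.
Irf2bp2, chr8:129122519-129122544, minus strand: agaggaccacTGTGGTgagtcagatg
Such an overlap was found in 1 of the 21 peaks of Irf2bp2, in none of the other peaks of the 3 genes, and in 26 peaks of the list, or 0.172%.

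All peaks counted for Irf2bp1 lay closer to other genes. Irf2bp1 is a gene of 2.7 kb on the plus strand (ENSMUSG00000044030, chr7:19589414-19592110) in a gene-dense region with 28 protein-coding TSS in the window. The nearest peak was centred 71.1 kb from the gene, and none of the 16 peaks had Irf2bp1 as its nearest gene. Instead 11 of them lay within 1 kb of a TSS, beside 38.0% of all peaks. The strongest, chr7:19662825-19663662, scored 227 and ranked 5 in the list, and it lay 99 bp upstream of a TSS of Dmwd, which encodes a WD repeat protein. The second, chr7:19851116-19852113, scored 94.6 and lay in an intron of Vasp, an actin regulator. Peaks with scores between 20.6 and 29.5 were near Dmpk, Opa3, Gpr4, Ccdc61, Vasp and Pglyrp1. The next by score lay 28 bp downstream of a TSS of Opa3, with 15.7, and 121 bp upstream of Snrpd2, with 10.5. On the upstream side the nearest peak to Irf2bp1 was 93.5 kb away, at Ccdc61, with a score of 25.4. At the edge of the window, the peak 294.4 kb downstream of the gene scored 5.36, and the first one outside, at 301.5 kb near Fosb, scored 4.23. On the upstream side the last peak inside was at 130.5 kb and the first one outside at 2052.5 kb.

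**Figure D2:**
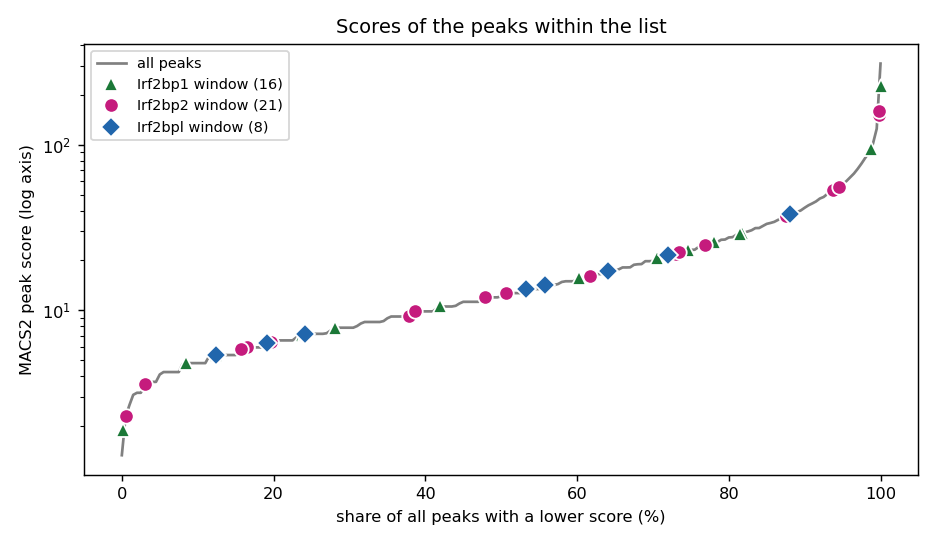
MACS2 score on a log axis against the percentage of all peaks with a lower score, for the whole list (line) and for the peaks of the 3 windows (symbols). Irf2bp1 and Irf2bp2 have peaks over the whole range up to 227 and 159, and the peaks of Irf2bpl end at 38.1.

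As many peaks in the window as Irf2bp2 or more were found for 1128 protein-coding genes, or 5.04%, with the gene itself counted here and below. For Irf2bp1 this share was 13.8% and for Irf2bpl 42.8%, and the median over all protein-coding genes was 6 peaks. Gene density differs widely between these windows. That of Irf2bp2 holds 4 protein-coding TSS, its own included, that of Irf2bpl 10, and the median is 11. Among the 3047 genes with 4 or fewer protein-coding TSS in the window, a class chosen after seeing the data, 6 had 21 or more peaks, or 0.197%, and the median was 1. By summed score, 99.1% of protein-coding genes were below Irf2bp2, 97.8% below Irf2bp1 and 54.1% below Irf2bpl.

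**Figure D3:**
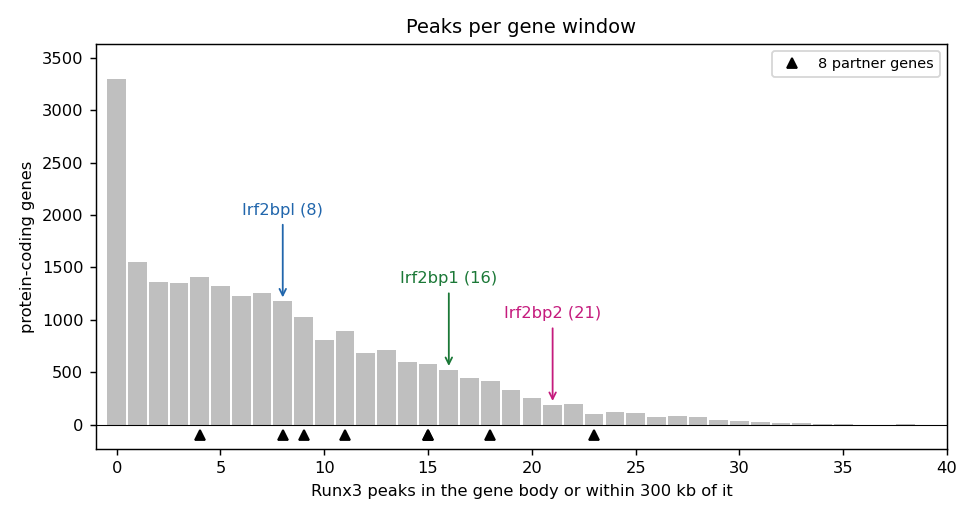
Number of protein-coding genes (y) by the number of Runx3 peaks in the gene body or within 300 kb of it (x, shown to 40). Arrows mark the 3 genes, at 8, 16 and 21 peaks, and triangles under the axis mark the 8 partner genes, which lie between 4 and 23, with a shared mark at 15.

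The 5 protein-coding genes closest to Irf2bp2 by peaks in the window, with ties settled by summed score and windows that do not overlap, were Gtf2h4, Prkaca, Il10rb, Stx6 and Sec24a. Each had 21 peaks. The summed score was 628 for Irf2bp2 and between 571 and 640 for these genes. Their windows held 5 to 28 protein-coding TSS, with 5 for Stx6, a syntaxin gene of vesicle traffic, and 28 for Gtf2h4, a subunit gene of the transcription factor TFIIH.

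**Figure D4:**
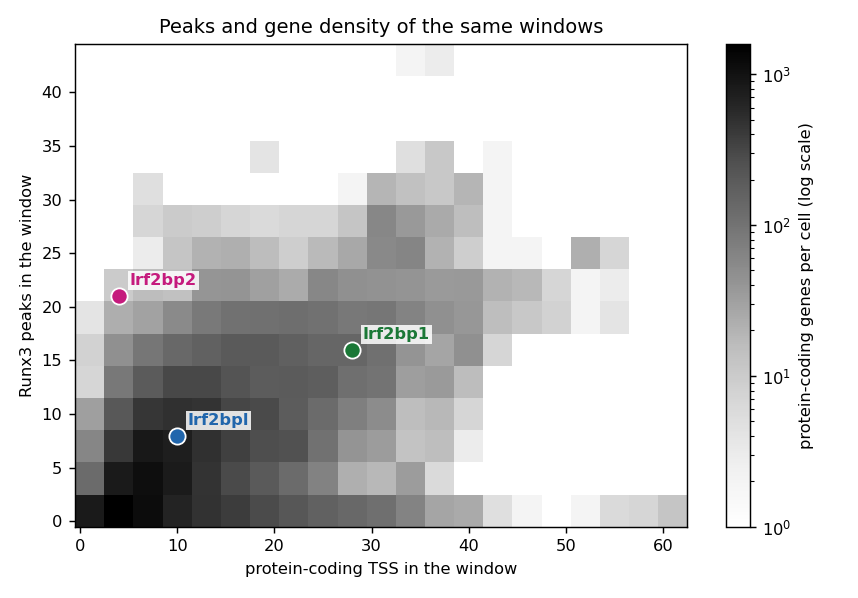
Runx3 peaks (y, shown to 45) against protein-coding TSS (x) in the windows of all protein-coding genes, where darker cells hold more genes on a log scale and cells span 3 TSS and 3 peaks. Irf2bp2 lies at the left edge with 21 peaks and 4 TSS, Irf2bp1 at 16 and 28, and Irf2bpl at 8 and 10.

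Over all 45 peaks, searched on both strands, 27 held TGTGGT (exact binomial 95% interval 44.3% to 74.3%), beside 54.0% of the list. The study gives the same hexamer TGTGGT as the RUNX motif and reports a much higher share of Runx3-bound regions with it. It does not state how matches were counted, and the difference was not resolved here. Only exact matches of the hexamer were counted here. At Irf2bp2 it was in 14 of 21 peaks, or 66.7% (43.0% to 85.4%), at Irf2bp1 in 10 of 16, or 62.5% (35.4% to 84.8%), and at Irf2bpl in 3 of 8, or 37.5% (8.52% to 75.5%). The interval of each gene includes the share of the list. Windows of equal width 10 kb downstream, where they were free of peaks and unsequenced bases, served as control. At Irf2bp2 the hexamer was in 14 of 19 such peaks and in 5 of their windows, and over the list in 53.9% of peaks and 30.9% of windows. At Irf2bp1 it was in 8 of 14 peaks and 7 windows, and at Irf2bpl in 3 of 8 peaks and 3 windows. Peaks of a locus share their source, and the intervals cover counting error only.

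Within the 200 bp around the peak centre 9 of 21 peaks of Irf2bp2 held TGTGGT, or 42.9% (21.8% to 66.0%), beside 41.8% of the list. The median distance of the nearest copy from the centre was 71.5 bp over 14 peaks at Irf2bp2, 35 bp over 10 peaks at Irf2bp1 and 46 bp over the list. In the strongest peak of Irf2bp2 the nearest copy was 277 bp away, and this peak also held 2 copies of TGCGGT. The peaks with scores of 55.8 and 53.2 held no TGTGGT, and the one 172.5 kb downstream, with a score of 11.96, held 5 copies. The strongest peak of Irf2bp1, at Dmwd, held a single copy 21 bp from its centre. The peaks differed in base composition. The median ratio of observed to expected CpG was 0.18 at Irf2bp2, 0.48 at Irf2bp1, 0.62 at Irf2bpl and 0.32 in the list. It was 0.82 in the peak 1168 bp upstream of Irf2bp2 and 0.99 in that over the Irf2bpl TSS.

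**Figure D5:**
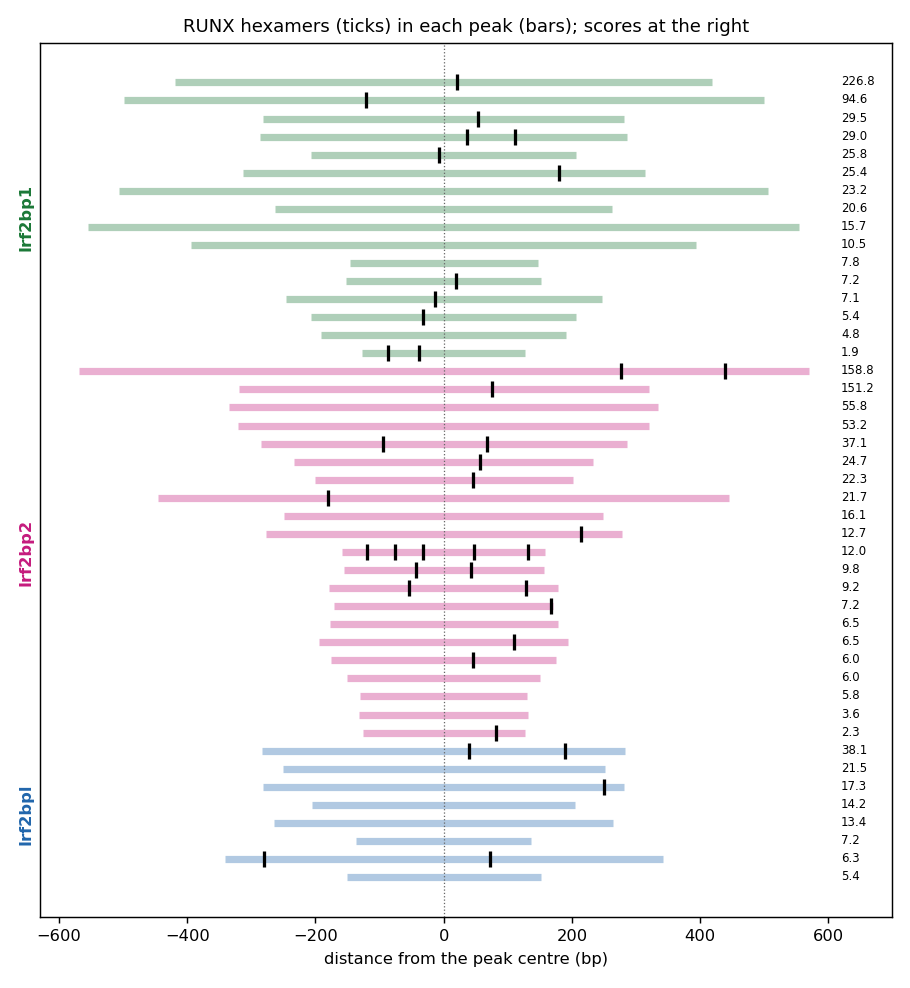
Position of the RUNX hexamer (ticks) in each of the 45 peaks (bars, drawn to their width in bp around the peak centre), ordered by score within each gene, with the score at the right. The ticks in the top peak of Irf2bp2 (score 159) stand 277 bp or more from the centre.

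Other factor motifs, searched on both strands, were as follows at Irf2bp2. The AP-1 motif TGANTCA was in 6 of 21 peaks, or 28.6% (11.3% to 52.2%), beside 13.2% of the list. The peak 256.3 kb upstream, with a score of 21.7, held 4 copies of it. TGACGT was in 4 of 21 peaks, or 19.0% (5.45% to 41.9%), beside 11.0%. GAAANNGAA, part of the element bound by interferon regulatory factors, was in 4 of 21 peaks, beside 14.7%, among them the peaks with scores of 55.8 and 53.2. The RUNX variant TGCGGT was in 4, beside 20.1%, the PU.1-like GAGGAAGT in 3, beside 14.6%, and the E-box CACGTG in 2, beside 10.9%. The intervals of TGANTCA and TGACGT include the share of the list.

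A list of 8 genes linked to the IRF2BP proteins, called partners here though not all are binding partners, gave a wide range. All 8 had a peak in the window, where 85.2% of protein-coding genes did, and 5 had a peak within 5 kb of a TSS, beside 31.3%. Cbfa2t3, which encodes the corepressor ETO2, had the most peaks in the window, with 23, and 3 within 5 kb of a TSS. Klf2, a factor of quiescence in lymphocytes and endothelium, had 18 and 3. Irf2 itself and the corepressor gene Ncor1 each had 15 and 2, but the highest score at Irf2 was 22.3 and no peak there reached the upper quartile. Nfatc2, which encodes NFAT1, had 9 and 2, with a highest score of 84.6. Irf1, the activating counterpart of Irf2, had 11 in the window, Tead4 had 8 and Vgll4 had 4, and none of these had a peak within 5 kb of a TSS. The highest score among the peaks of these genes, 120, was in the window of Vgll4. The median over the 8 genes was 13 peaks, beside 6 over all protein-coding genes. The list was written with earlier results of these data known, so these values are a description. Windows grow with gene length, from 602.6 kb for Klf2 to 742.1 kb for Ncor1, beside 605.1 kb for Irf2bp2. Peaks within 5 kb were counted at the TSS of any transcript, of which Ncor1 has 30 and Klf2 has 1.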

How the data were processed

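Runx3 ChIP-seq was performed on chromatin of sorted splenic CD4+ DC, fragmented to about 300 bp, with reads of 50 bp. Per the labels the submitters' processing notes name CASAVA 1.8, Bowtie, MACS2 and mm9, and the study aligned reads uniquely. The authors deposited 1 list of peaks called by MACS2 on both Runx3 samples against both inputs, with a score per peak. Its unit, the threshold and the handling of duplicates are not given in the sources used here.

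Peaks were placed by their centre on GENCODE M1 genes without the mitochondrial ones, and sequences were read from NCBIM37, the same assembly, in which all peaks lay. Positions count from 1. Irf2bpl was matched through a RefSeq synonym. RefSeq promoters are from GRCm38.p6 and were matched to mm9 by sequence. Members, lists and motifs were chosen with earlier results of these data known. No test was made, as stated in the report. Named genes were the 3 genes, those nearest to the named peaks, 8 partners and the 5 genes most like Irf2bp2 by peak number. Named peaks were all peaks of a gene with 12 or fewer, and otherwise the 10 with the highest score, those within 5 kb of the TSS and those nearest to the gene and to the window edges. Others that are named were chosen after their values were seen. Counting of windows and hexamers was tested on simulated data. Scripts ran under Python 3.11.15 with pandas 2.3.3 and numpy 2.4.6 for tables, scipy 1.17.1 for exact intervals and matplotlib 3.10.9 for plots.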

Additional observations from a re-analysis of the deposited data

How the results depend on the processing

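No paired analysis was possible because the list is 1 call on the pooled samples, without a value per replicate, and for the same reason no replicate could be left out. Of 61 alternatives, 23 left their value within 1.5 times the count or within the binomial interval of the share. By this measure every alternative for the percentage of protein-coding genes with fewer peaks fell outside, even 94.5 against 95 for Irf2bp2. A binomial interval over all protein-coding genes is narrow and does not measure how far a rank can vary. Numbers of peaks above a score cutoff can only stay or fall. The tally is therefore no measure of robustness. The number of peaks depended on the rule. With 100 kb on either side it was 5 for Irf2bp1 and 7 for Irf2bp2, and with 500 kb 25 for Irf2bp1. For Irf2bp1, Irf2bp2 and Irf2bpl it was 9, 10 and 5 at or above the median score, 7, 6 and 1 at or above the upper quartile, and 0, 9 and 4 by the nearest protein-coding TSS. In regulatory domains (5 kb upstream, 1 kb downstream, extended by at most 1000 kb) it was 0 for Irf2bp1 and 4 for Irf2bpl, and 20 for Irf2bp2. The percentage of protein-coding genes with fewer peaks was 86.2, 95 and 57.2 for Irf2bp1, Irf2bp2 and Irf2bpl. It was 72.6, 85 and 79.4 with 100 kb, 88.9, 87.4 and 49.2 with 500 kb, and 88.9, 95.8 and 62.7 per window length. It was 87.4, 91.0 and 65.0 at or above the median score, 95.2, 91.7 and 33.6 at or above the upper quartile, 87.5, 94.5 and 58.3 with peaks joined closer than 300 bp, 97.8, 99.1 and 54.1 by summed score, and 99.8 for Irf2bp2 in windows with no more protein-coding genes. TGTGGT was in 42.9% of the peaks of Irf2bp2 within the central 200 bp, and in 100% of the 5 peaks within 100 kb of Irf2bp1. The reads behind each peak are unknown here, so places without a peak may hold binding below the authors' threshold. The gene-poor class was chosen after seeing the data.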
